A study of Homo sapiens with 6 samples.

Results

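Adhesion G protein-coupled receptors are cell-surface receptors with a long extracellular part that binds matrix or neighbouring cells, joined to the 7-pass membrane domain shared by all G protein-coupled receptors. In many of them an autoproteolytic site next to the membrane cuts the protein into 2 fragments that stay together, and the freshly exposed start of the membrane fragment can act as a tethered agonist. Many members are studied in neurons, glia, leukocytes and endothelium, and several have been described in epithelial tumours.

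The genes described here are those with a symbol of the form ADGR, a letter and a digit, or CELSR and a digit, in the deposited count tables. They number 32 of 22091 gene IDs. Members were chosen by symbol alone, and those called expressed were selected on their level, at 1 CPM or more (counts relative to the TMM-scaled library size), so levels and differences between lines are given without a test. The family was singled out with the rise of ADGRG1 in these libraries already known, and the p-values below are no independent support for that rise.

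RNA was sequenced from human hepatocellular carcinoma cell lines given TGF-β1 at 2.5 ng/mL for 4 h, and from control cultures of the same lines at 4 h. The lines were MHCC97L, MHCC97H and HCCLM3, all kept in DMEM with fetal bovine serum. MHCC97L and MHCC97H are clones of one parental tumour line, with MHCC97H the more metastatic, and HCCLM3 was derived from MHCC97H, so the 3 lines are related. Each line has 1 TGF-β1 library and 1 control library, and nothing in the labels says whether they came from separate cultures. A p-value for the ligand therefore sets the mean response against its variation between lines. The fit moderates this variation toward that of other genes, so a p-value does not rest on the 3 lines of that gene alone. The fit treats the 3 related lines as independent.

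Library totals lay between 18485041 and 23242862 expected counts, and a count of 0 allows up to 0.129 to 0.162 CPM in a single library. Transcripts known to be induced by TGF-β1 rose in the treated libraries, with 4 of 4 check genes called and SMAD7 at 51.3 ± 11.6 CPM after TGF-β1 against 22.3 ± 3.70 CPM in controls (SD, n = 3 each). Of 10 markers of hepatocytes and liver epithelium 9 reached 1 CPM, led by KRT8 at 5878 ± 989.9 CPM after TGF-β1 and 4782 ± 479 CPM in controls, while ALB stood at 12.0 ± 10.6 CPM after TGF-β1 and 11.1 ± 10.9 CPM in controls (SD, n = 3 each). In that list 4 of 10 genes tested rose and 1 fell by edgeR, beside 7.78% and 6.64% of all genes tested. With library totals 2 rose and 1 fell, beside 806 and 1366 of all 14176 genes tested. Without MHCC97L 1 rose and 1 fell, beside 423 and 188 of all 14255 genes tested. The 8 endothelial markers summed to 117 to 138 CPM after TGF-β1 and 103 to 128 CPM in controls, and 5 of the 8 reached 1 CPM. ESAM was called higher (103 CPM after TGF-β1, 87.0 CPM in controls, adjusted p 0.0441 by edgeR) and PECAM1 lower (17.4 and 22.4 CPM, adjusted p 0.0343 by edgeR). Both calls were lost without MHCC97L (0.258 for ESAM, 0.101 for PECAM1) and without MHCC97H (0.206 and 0.169), and over the alternatives the adjusted p ranged from 0.0106 to 0.78 for ESAM and from 0.0174 to 0.898 for PECAM1 by edgeR and the other tools. KDR averaged 6.04 CPM after TGF-β1 and 5.46 CPM in controls and VWF 2.17 and 2.05 CPM, while CDH5, TIE1 and ERG averaged at most 0.211 CPM. The 7 leukocyte markers summed to 19.8 to 29.3 CPM after TGF-β1 and 18.4 to 26.8 CPM in controls, and 3 of them reached 1 CPM. These were ITGAM (9.84 CPM after TGF-β1, 10.5 CPM in controls), CD79A (9.05 and 7.42 CPM) and LYZ (3.91 and 3.15 CPM), while the pan-leukocyte gene PTPRC averaged at most 0.061 CPM. The 8 markers of stellate cells and fibroblasts summed to 19.7 to 27.3 CPM after TGF-β1 and 11.1 to 20.4 CPM in controls. COL1A1 was the 1 gene of that list called, at 6.15 ± 0.913 CPM after TGF-β1 and 0.402 ± 0.088 CPM in controls (SD, n = 3 each), while LUM averaged 13.7 CPM after TGF-β1 and 12.4 CPM in controls, DCN 1.70 and 1.14 CPM, and ACTA2 and THY1 at most 0.061 CPM. The part of these other cell types in the results was not tested.

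The 3 lines expressed about the same part of the family. After TGF-β1, 16 members in MHCC97L, 17 in MHCC97H and 16 in HCCLM3 had 1 CPM or more, against 15, 17 and 15 in the matching controls. In each library 59.0% to 59.5% of all gene IDs did so. In all, 18 of 32 members reached 1 CPM in at least 1 library, beside 62.9% of all gene IDs. All 6 libraries reached 1 CPM for 13 of 32 members, beside 55.7% of all gene IDs. The members nearest the limit were ADGRA2, at 1.05 CPM in the MHCC97H control, just inside, and ADGRG2, at 0.968 CPM in HCCLM3 after TGF-β1, just outside.

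**Figure D1:**
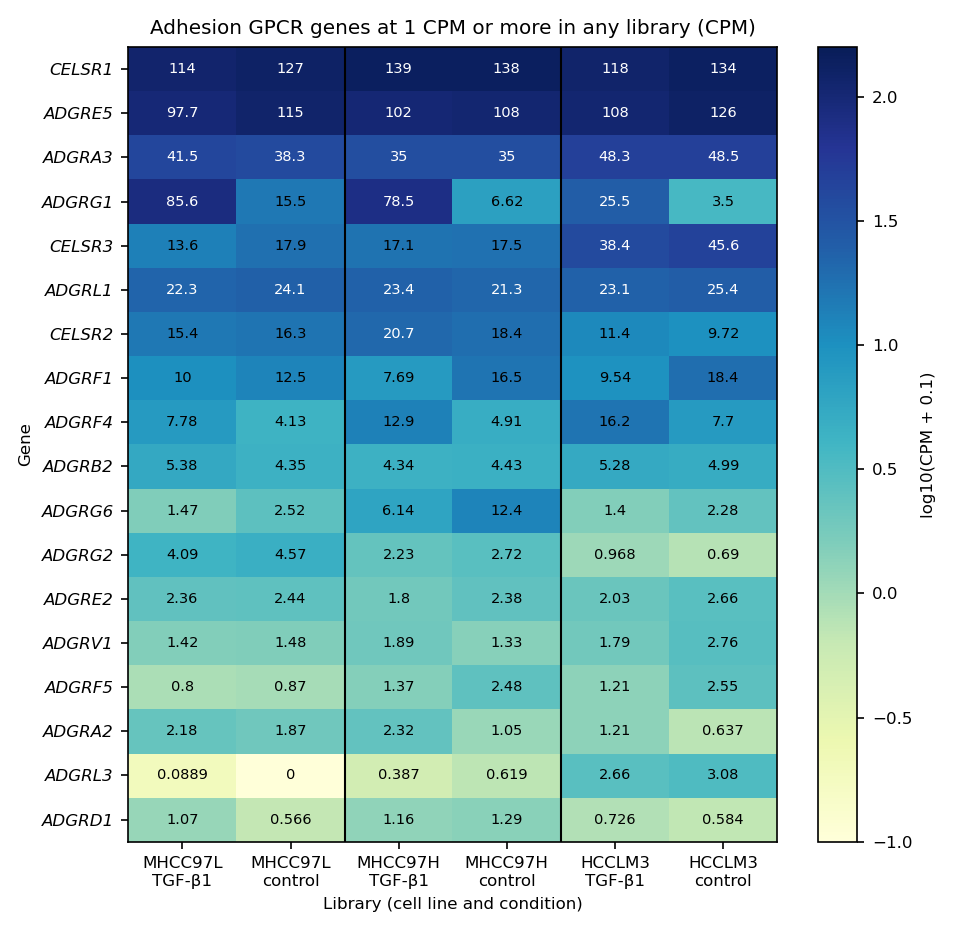
Levels in CPM of the 18 adhesion receptor genes that reached 1 CPM in any library (rows) in the 6 libraries (columns, TGF-β1 left of control for each line). Numbers are CPM and the colour is log10(CPM + 0.1). CELSR1 and ADGRE5 lead every column but are not comparable with shorter or longer genes on this scale, and ADGRG1 is the row whose colour changes most between the libraries of a line.

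The other 14 members stayed below 1 CPM in every library. ADGRA1, ADGRB3, ADGRD2, ADGRE3, ADGRG3, ADGRL2 and ADGRL4 had a count of 0 in all 6. These are 7 of 32 members, beside 15.7% of all gene IDs. ADGRL4 is known mainly from endothelium, and ADGRE3 and ADGRG3 from myeloid cells. ADGRG4, ADGRG5 and ADGRG7 had at most 1 count in any library. ADGRF2 reached 0.215 CPM, ADGRB1 0.515 CPM, ADGRF3 0.762 CPM and ADGRE1, the human counterpart of the mouse macrophage marker F4/80, 0.775 CPM. In bulk RNA a low level can come from few cells or from little RNA per cell, and these cannot be told apart.

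To compare members with each other, levels were divided by the length of their annotated exons. ADGRE5, also called CD97, which binds the complement regulator CD55, was highest in all 6 libraries. It had 18.2, 18.9 and 19.98 CPM per kb in the TGF-β1 libraries of MHCC97L, MHCC97H and HCCLM3, against 21.5, 20.03 and 23.5 CPM per kb in their controls. Its partner CD55 averaged 44.6 ± 6.60 CPM after TGF-β1 and 45.9 ± 1.56 CPM in controls (SD, n = 3 each).

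CELSR1, a cadherin-type member of the planar cell polarity machinery, stood at 8.91, 10.9 and 9.18 CPM per kb after TGF-β1 in the same order of lines, against 9.88, 10.8 and 10.4 CPM per kb in controls. ADGRA3, an orphan member, had 4.49, 3.79 and 5.22 CPM per kb after TGF-β1 and 4.14, 3.78 and 5.25 CPM per kb in controls. The latrophilin ADGRL1, which binds teneurins and FLRT proteins, had 2.62, 2.75 and 2.72 CPM per kb after TGF-β1 and 2.84, 2.51 and 2.99 CPM per kb in controls. These 4 receptors varied little between lines and conditions.

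Other members differed between the lines more than between conditions. CELSR3 had 13.6, 17.1 and 38.4 CPM in the TGF-β1 libraries of MHCC97L, MHCC97H and HCCLM3, against 17.9, 17.5 and 45.6 CPM in their controls. Its counts in HCCLM3 were 2.65 times those in MHCC97L and 2.42 times those in MHCC97H over both libraries of each line, with 95% counting intervals of 2.42 to 2.89 and 2.22 to 2.64. CELSR2, its relative, was lowest in HCCLM3, at 15.4, 20.7 and 11.4 CPM after TGF-β1 and 16.3, 18.4 and 9.72 CPM in controls.

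ADGRG2, known from the epididymis, where it takes part in fluid transport, was highest in MHCC97L. It had 4.09, 2.23 and 0.968 CPM after TGF-β1 and 4.57, 2.72 and 0.690 CPM in controls, in the same order of lines. The HCCLM3 to MHCC97L ratio was 0.193 (95% counting interval 0.129 to 0.280).

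ADGRL3, a latrophilin bound by FLRT3 and teneurins, was highest in HCCLM3 and reached 1 CPM in no other line. After TGF-β1 it had 2 expected counts in MHCC97L, 9 in MHCC97H and 55 in HCCLM3, against 0, 13 and 58 in the matching controls. The HCCLM3 to MHCC97H ratio was 5.76 (95% counting interval 3.62 to 9.55), and the HCCLM3 to MHCC97L ratio rests on 2 counts in MHCC97L, at 65.1 (17.6 to 544.1). The teneurin gene TENM1 was also higher in HCCLM3, at 3.97 CPM there after TGF-β1 and 7.22 CPM in its control. The libraries of the other lines had 0.0435 to 0.215 CPM of TENM1, which overlaps STAG2 on the opposite strand. TENM2, TENM3 and TENM4 had at most 0.194 CPM in any library. FLRT3 was instead lowest in HCCLM3. It had 13.5, 18.2 and 9.20 CPM after TGF-β1 in MHCC97L, MHCC97H and HCCLM3, against 26.5, 36.7 and 19.7 CPM in controls.

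The levels of 4 low expressed members had the following ranges over the lines. ADGRB2, a brain-enriched member, had 4.34 to 5.38 CPM after TGF-β1 and 4.35 to 4.99 CPM in controls. ADGRE2, a myeloid member that binds dermatan sulfate, had 1.80 to 2.36 CPM and 2.38 to 2.66 CPM. ADGRV1, the very long receptor affected in a form of Usher syndrome, had 1.42 to 1.89 CPM and 1.33 to 2.76 CPM. ADGRD1, a receptor that couples to Gs, had 0.726 to 1.16 CPM and 0.566 to 1.29 CPM. The counting intervals of the line ratios of ADGRB2 and ADGRE2 all held 1, while ADGRD1 was lower in HCCLM3 than in MHCC97H, at a ratio of 0.540 (0.325 to 0.877). Over both libraries ADGRV1 was higher in HCCLM3 than in MHCC97L, at 1.55 (1.12 to 2.17), and than in MHCC97H, at 1.39 (1.005 to 1.92). After TGF-β1, however, ADGRV1 had 1.79 CPM in HCCLM3 and 1.89 CPM in MHCC97H, against 2.76 and 1.33 CPM in controls.

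After TGF-β1, ADGRG1 and ADGRF4 rose and ADGRF1 and ADGRG6 fell. The fit covered all genes with enough counts in at least 3 libraries, of which 19 are members, and 4 of these 19 were called at 0.05 after Benjamini-Hochberg adjustment over all 14176 genes tested (quasi-likelihood F test of edgeR). Of all genes tested 14.4% passed, 7.78% higher and 6.64% lower, beside 2 members that rose and 2 that fell. The median change was -0.09 on the log2 scale over the 19 members and -0.003 over all genes tested. The split of calls over all genes depends on the scaling, with 54.0% of calls higher here, 44.2% with upper quartiles and 37.1% with library totals, but the 4 members kept their direction and their calls under each scaling.

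**Figure D2:**
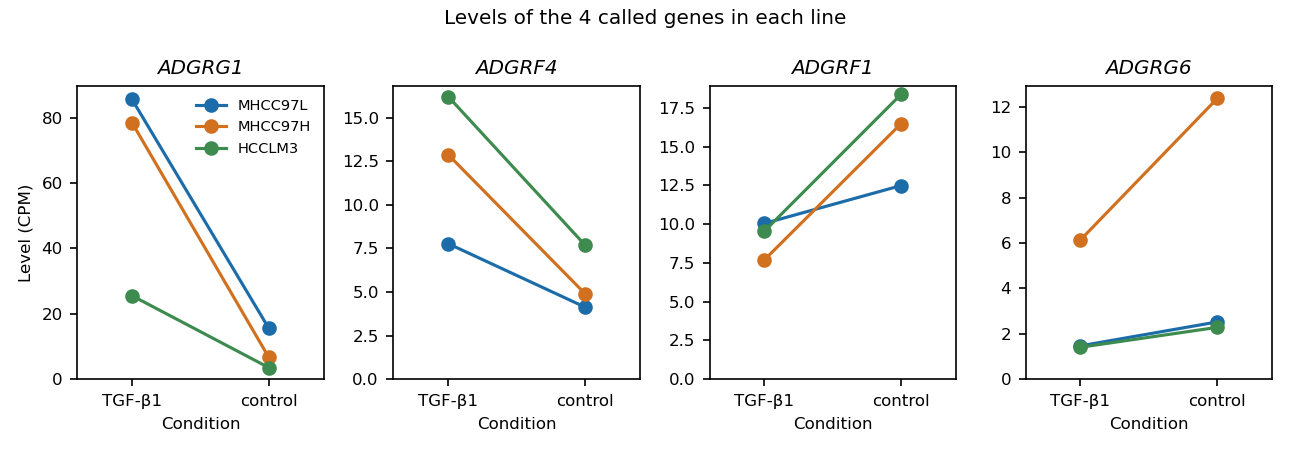
Level in CPM (vertical axis, from 0, own scale per panel) of ADGRG1, ADGRF4, ADGRF1 and ADGRG6 with TGF-β1 (left) and in controls (right), 1 point per library and 1 line per cell line. ADGRG1 lies at 25.5 to 85.6 CPM after TGF-β1 and 3.5 to 15.5 CPM in controls, ADGRF4 runs the same way in all 3 lines, and ADGRF1 and ADGRG6 run the opposite way.

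ADGRG1, also called GPR56, is a receptor for collagen III and transglutaminase 2 that couples to the G12 and G13 class of G proteins. It had 85.6, 78.5 and 25.5 CPM in the TGF-β1 libraries of MHCC97L, MHCC97H and HCCLM3, against 15.5, 6.62 and 3.5 CPM in their controls. Every treated library was above every control, HCCLM3 being lowest of the lines in both conditions. The change was 2.94 on the log2 scale (SE 0.249, n = 3 lines), or 7.66-fold, with an adjusted p of 0.00706 by edgeR. Within lines it was 2.46 in MHCC97L (95% counting interval 2.30 to 2.63), 3.55 in MHCC97H (3.32 to 3.83) and 2.83 in HCCLM3 (2.49 to 3.26). The interval of MHCC97H did not overlap those of the other lines, which is a statement on counting error alone. Without HCCLM3 the change was 2.93 and the adjusted p 0.161, in a range of 2.7e-50 to 0.218 over the alternatives by edgeR and the other tools.

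With that change ADGRG1 moved within the family. Per kb of exon it had 9.88, 9.06 and 2.95 CPM after TGF-β1 in MHCC97L, MHCC97H and HCCLM3, against 1.79, 0.765 and 0.405 CPM in controls. It ranked 2, 3 and 5 among the members after TGF-β1 and 5, 10 and 10 in controls. Its share of the family's summed CPM was 20.0%, 17.1% and 6.12% after TGF-β1, against 3.97%, 1.67% and 0.796% in controls. The summed level of all members was 428, 459 and 417 CPM after TGF-β1 and 391, 396 and 440 CPM in controls, so the sum was lower after TGF-β1 in HCCLM3 alone.

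ADGRG1 (ENSG00000205336.11) lies on hg38 chromosome 16 from 57610652 to 57665580, between ADGRG5 and ADGRG3 on the same strand. These 3 genes span 147 kb with no other gene of the count tables between them. ADGRG5 had 1 count in 1 control library and 0 elsewhere, and ADGRG3 had 0 in all 6, so no change was detectable in either at this depth. ADGRG1 had fractional counts, which splitting of shared reads would give, so its level is uncertain to that degree.

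ADGRF4, also called GPR115, is an orphan receptor that takes part in enamel formation in mice. It had 7.78, 12.9 and 16.2 CPM in the TGF-β1 libraries of MHCC97L, MHCC97H and HCCLM3, against 4.13, 4.91 and 7.70 CPM in their controls. The lowest treated value, in MHCC97L, was only just above the highest control, in HCCLM3. The change was 1.13 (SE 0.129, n = 3 lines), or 2.19-fold, with an adjusted p of 0.000947 by edgeR. It was 0.90 in MHCC97L (95% counting interval 0.54 to 1.29), 1.38 in MHCC97H (1.07 to 1.73) and 1.07 in HCCLM3 (0.79 to 1.37). These intervals overlap.

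ADGRF1, also called GPR110, a Gs-coupled receptor activated by the lipid synaptamide, went down. It had 10.04, 7.69 and 9.54 CPM after TGF-β1 in MHCC97L, MHCC97H and HCCLM3, against 12.5, 16.5 and 18.4 CPM in controls. The treated libraries lay below all controls. The change was -0.78 (SE 0.152, n = 3 lines), with an adjusted p of 0.0131 by edgeR. It was -0.31 in MHCC97L (95% counting interval -0.57 to -0.06), -1.09 in MHCC97H (-1.37 to -0.84) and -0.94 in HCCLM3 (-1.21 to -0.69). The size in MHCC97L was thus smaller than in the other lines beyond counting error. Counts of ADGRF1 were not whole.

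ADGRG6, also called GPR126, binds collagen IV and is needed for Schwann cell myelination in zebrafish and mice. It had 1.47, 6.14 and 1.4 CPM after TGF-β1 in MHCC97L, MHCC97H and HCCLM3, against 2.52, 12.4 and 2.28 CPM in controls. The conditions overlap because MHCC97H is far above the other lines, at 4.55 times MHCC97L over both libraries (95% counting interval 3.62 to 5.78). The change was -0.89 (SE 0.160, n = 3 lines), with an adjusted p of 0.00887 by edgeR. Within lines it was -0.75 (-1.45 to -0.14), -1.0 (-1.32 to -0.71) and -0.67 (-1.43 to 0.01) for MHCC97L, MHCC97H and HCCLM3, lower in 3 of 3. The adjusted p was 0.151 without MHCC97H by edgeR and 0.0594 by DESeq2, in a range of 0.00136 to 0.774 over the alternatives.

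ADGRF1 and ADGRF4 belong to one gene cluster on hg38 chromosome 6, from 46852512 to 47722021, which holds 4 members and 2 other genes of the count tables. In map order these are ADGRF5, ADGRF1, TNFRSF21, CD2AP, ADGRF2 and ADGRF4, the first 3 on the minus strand and the others on the plus strand. ADGRF5, or GPR116, which controls surfactant in the lung, had 0.800, 1.37 and 1.21 CPM after TGF-β1 in MHCC97L, MHCC97H and HCCLM3, against 0.870, 2.48 and 2.55 CPM in controls. Its change of -0.77 (SE 0.257) did not pass, with an adjusted p of 0.0805 by edgeR. TNFRSF21, a death receptor gene, fell by 0.38 on the log2 scale (SE 0.071, adjusted p 0.0102 by edgeR), and CD2AP, which encodes an adaptor of the actin cytoskeleton, fell by 0.29 on the log2 scale (SE 0.066, adjusted p 0.0218 by edgeR). Without MHCC97L both calls were lost, at an adjusted p of 0.12 for TNFRSF21 and 0.229 for CD2AP by edgeR, and without MHCC97H that of CD2AP was lost (0.101). Over the alternatives the adjusted p ranged from 0.000595 to 0.596 for TNFRSF21 and from 0.00352 to 0.562 for CD2AP by edgeR and the other tools. Of the 5 genes of the cluster that were tested ADGRF4 was the 1 that rose, next to ADGRF2, whose exons overlap its own on the same strand and which reached only 0.215 CPM.

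**Figure D3:**
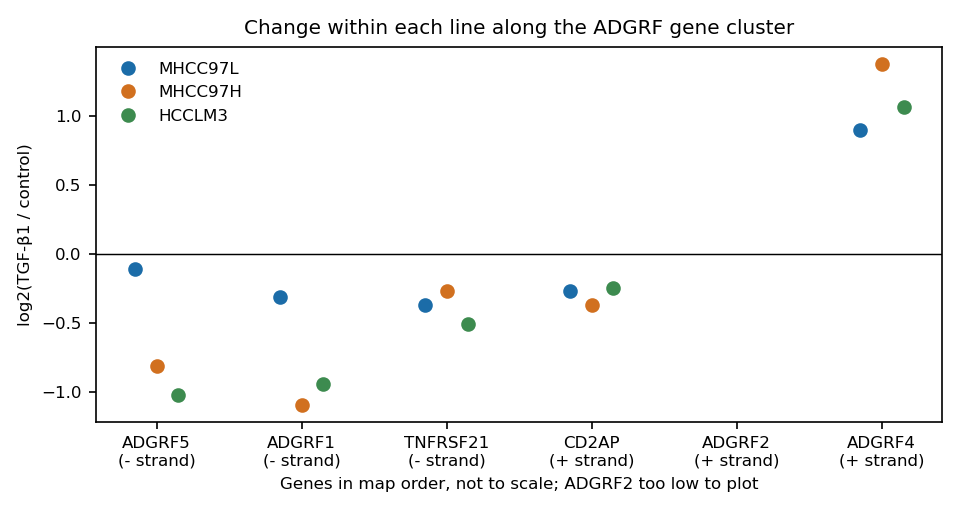
Change within each line, as log2 of TGF-β1 over control (prior count 2, no error bars), of the genes of the chromosome 6 cluster in map order, 1 colour per line. ADGRF4 lies at 0.90 to 1.38 and ADGRF1 at -1.09 to -0.31. ADGRF5 in MHCC97L is drawn although it was below 1 CPM in both libraries, and ADGRF2 is not drawn because its counts are too low.

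Stretches before the start sites of the 4 called genes are shown because these were the members called. They are from the RefSeq promoter table (GRCh38.p14), which lists windows for these genes at 1 start each for ADGRF1, ADGRF4 and ADGRG6 and at 3 for ADGRG1. From the 250 bases before a start only the longest part outside annotated exons is printed, at the ADGRG1 start with the longest such part. All 3 ADGRG1 windows and the ADGRF4 window lie inside the annotated span of their gene, not before its first base. Capitals mark matches on either strand to CAGAC, the core bound by SMAD proteins, TGANTCA, and GGAATG, the TEAD site. The pattern TGANTCA takes in the AP-1 site but allows any base in its middle.
ADGRG1 chr16:57619488-57619692, plus strand: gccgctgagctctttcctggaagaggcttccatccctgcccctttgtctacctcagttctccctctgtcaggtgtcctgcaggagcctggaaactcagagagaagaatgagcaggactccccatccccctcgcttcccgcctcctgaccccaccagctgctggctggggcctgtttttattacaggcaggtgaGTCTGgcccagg
ADGRF4 chr6:47698330-47698552, plus strand: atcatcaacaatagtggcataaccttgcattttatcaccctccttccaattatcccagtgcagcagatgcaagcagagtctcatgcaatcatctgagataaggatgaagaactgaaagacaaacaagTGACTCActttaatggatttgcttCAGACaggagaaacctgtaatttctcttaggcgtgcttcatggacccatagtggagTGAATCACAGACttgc
ADGRF1 chr6:47042364-47042582, minus strand: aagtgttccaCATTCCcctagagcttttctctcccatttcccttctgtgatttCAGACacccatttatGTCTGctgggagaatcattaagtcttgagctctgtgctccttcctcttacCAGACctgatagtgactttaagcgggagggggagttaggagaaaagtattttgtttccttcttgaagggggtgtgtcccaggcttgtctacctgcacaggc
ADGRG6 chr6:142301757-142301853, plus strand: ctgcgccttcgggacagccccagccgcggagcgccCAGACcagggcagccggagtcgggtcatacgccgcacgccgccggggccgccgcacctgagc

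The whole window of 250 bases held 2 matches to TGANTCA for ADGRF4, which read TGACTCA and TGAATCA. The TGAATCA lies nearer the start site and is followed directly by a CAGAC. The window of 1 of the 3 ADGRG1 starts also held 2 matches to TGANTCA, but that window lies wholly within annotated exons. Those of the other ADGRG1 starts held 0. No match to TGANTCA lay in the windows of ADGRF1 and ADGRG6. A match to TGANTCA occurs in 6.57% of the 35116 windows of the table. CAGAC was matched in every one of these windows, 3 times for ADGRF1, and occurs in 38.0% of all windows. GGAATG was matched 1 time for ADGRF1 and in none of the others, against 11.9% of all windows. These matches describe the letters of the windows and were not tested for binding.

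The other 15 members tested did not pass. ADGRA2, or GPR124, a co-receptor for WNT7 ligands in brain vessels, had 2.18, 2.32 and 1.21 CPM after TGF-β1 in MHCC97L, MHCC97H and HCCLM3, against 1.87, 1.05 and 0.637 CPM in controls. Its change was 0.68 (95% interval of the fit 0.08 to 1.29), with an adjusted p of 0.123 by edgeR. ADGRE5 had 97.7, 102 and 108 CPM after TGF-β1 and 115, 108 and 126 CPM in controls, a change of -0.19 (-0.34 to -0.03) with an adjusted p of 0.1 by edgeR. CELSR3 had a change of -0.23 (-0.44 to -0.02), with an adjusted p of 0.138 by edgeR.

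For the abundant members the fit leaves room only for small changes. The 95% interval of the change was -0.26 to 0.05 for CELSR1, -0.13 to 0.33 for CELSR2, -0.13 to 0.20 for ADGRA3 and -0.24 to 0.16 for ADGRL1, all narrower than a 2-fold change in either direction. It was wide for the members at low counts, at -1.02 to 0.54 for ADGRL3, -0.97 to 0.96 for ADGRF3, -0.69 to 0.50 for ADGRV1 and -0.45 to 1.04 for ADGRD1. The intervals of ADGRB2, ADGRE2 and ADGRG2 were -0.20 to 0.45, -0.71 to 0.17 and -0.57 to 0.33. Of the 19 members tested, 2 had all TGF-β1 libraries above all controls, ADGRG1 and ADGRF4, beside 8.77% of all genes tested. ADGRF1, ADGRE5 and ADGRE2 had all of them below, beside 9.19% of all genes tested.

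Within each line, members expressed in at least 1 of its libraries were counted at a 2-fold change, without a test since there is 1 library per condition. In MHCC97L 1 of 16 was 2-fold higher after TGF-β1, ADGRG1, and 0 were 2-fold lower, beside 2.1% and 1.08% of all genes at that level. In MHCC97H 3 of 17 were 2-fold higher after TGF-β1, ADGRG1, ADGRF4 and ADGRA2, and ADGRF1 and ADGRG6 were 2-fold lower, beside 2.78% and 1.54%. In HCCLM3 ADGRG1 and ADGRF4 were 2-fold higher and ADGRF5 2-fold lower out of 16, beside 2.15% and 1.34%. The ADGRA2 and ADGRF5 values rest on 22 to 54 and 25 to 48 counts, with counting intervals of 0.41 to 1.93 and -1.83 to -0.35.

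**Figure D4:**
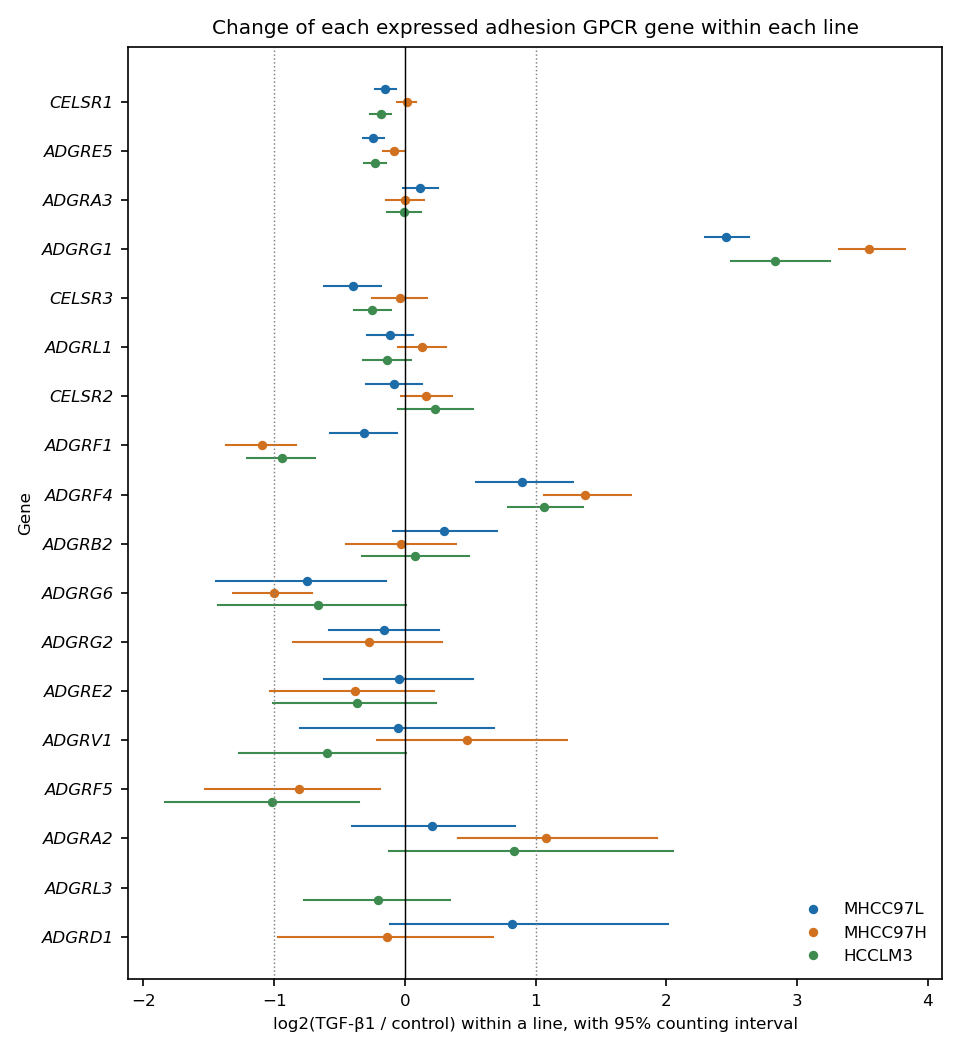
Change within each line, as log2 of TGF-β1 over control (horizontal axis, points, prior count 2) with 95% counting intervals (bars), for members at 1 CPM or more in either library of that line. Dotted lines mark 2-fold. ADGRG1 lies at 2.46 to 3.55 and the CELSR1, ADGRE5, ADGRA3, CELSR3, ADGRL1 and CELSR2 points lie between -0.40 and 0.23.

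Partners of these receptors were read from lists that hold reported ligands and co-receptors and planar cell polarity genes. Of 30 ligands and partners listed 18 passed the count filter, of which 4 rose and 1 fell, beside 7.78% and 6.64% of all genes tested, and their median change was 0.20 against -0.003 over all genes. ITGA5, the integrin subunit reported with ADGRE5, rose by 1.18 (SE 0.078) to 293 ± 68.7 CPM, against 133 ± 47.5 CPM in controls. FLRT3, a ligand of latrophilins, fell by 1.02 on the log2 scale (SE 0.086) to 13.6 ± 4.51 CPM, against 27.7 ± 8.57 CPM in controls (SD, n = 3 each). WNT7B, a ligand of the ADGRA2 complex, rose by 0.58, FLRT2 by 0.41 and TGM2, the transglutaminase bound by ADGRG1, by 0.32. The last 2 calls were lost without MHCC97L or without MHCC97H, at an adjusted p of 0.18 and 0.0889 for FLRT2 (range over its alternatives 0.00225 to 0.226) and 0.244 and 0.0979 for TGM2 (0.000513 to 0.875) by edgeR and the other tools. TGM2 overlaps RPRD1B on the opposite strand, and FLRT2 and WNT7B did not have whole counts.

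COL3A1, the collagen ligand of ADGRG1, did not pass the count filter and was not tested. It had 0.0444, 0.172 and 11.7 CPM after TGF-β1 in MHCC97L, MHCC97H and HCCLM3, against 0.0435, 0.381 and 14.4 CPM in controls. HCCLM3 is thus the line with the most COL3A1 and the least ADGRG1. TGM2 was also highest there, with 342, 379 and 699 CPM after TGF-β1 in the same order of lines, against 269, 277 and 620 CPM in controls. A link between these levels was not tested.

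Of 14 planar cell polarity partners of the CELSR receptors listed 10 passed the count filter. Of these 2 rose and 0 fell by edgeR, beside 7.78% and 6.64% of all genes tested, and 2 were lower at an unadjusted p under 0.05. DESeq2 and limma-voom also called 0 lower, beside 541 and 836 of all 14176 genes tested. With library totals edgeR called 1 lower, beside 1366 of 14176 genes. Without HCCLM3 it called 3 higher and 2 lower, beside 2148 and 1825 of 14344 genes. In the main fit the median change was 0.01, against -0.003 over all genes tested. PRICKLE2 rose by 0.73 (SE 0.096) and DVL1, a dishevelled gene that overlaps TAS1R3 on the opposite strand, by 0.65 (SE 0.094). VANGL2 and ROR2 had a count of 0 in all 6 libraries.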

How the data were processed

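Messenger RNA levels were measured by sequencing total RNA of 3 cell lines with and without TGF-β1, 6 libraries in all. The authors deposited expected counts per Ensembl gene ID, 1 table per library. Per the submitters' processing notes, TopHat2 2.1.1, Cufflinks 2.2.1, Cuffdiff 1.3.0 and hg38 were used, without stated roles, and the counting tool and strand setting are not given in the sources used here. Symbols came from the reference gene name table and GENCODE 29 (19574 of 22091 IDs). Counts were rounded, which moved a library total by at most 134, filtered by filterByExpr on treatment and scaled by TMM (factors 0.971 to 1.03). TGF-β1 was tested in R 4.3.3 with edgeR 4.0.16 (robust quasi-likelihood, cell line and treatment as terms, 2 residual degrees of freedom). DESeq2 1.42.0 and limma 3.58.1 served as alternatives. The SE is the change divided by the root of F. Intervals use the fit's total degrees of freedom, which include those borrowed from other genes by moderation. Within a line, the change is log2 of the CPM ratio after adding 2 counts to each library in proportion to its size, and counting intervals are exact conditional binomial intervals at 95%. Intervals and floors (3 counts) cover counting error only, since reads carry no molecular identifiers.

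The labels pair the libraries by cell line. The deviations of a line's libraries from their condition means correlated across genes at 0.587 in MHCC97L, 0.456 in MHCC97H and 0.728 in HCCLM3. Every member was accounted for, and from each partner list up to 6 called genes with the smallest p were named. TNFRSF21 and CD2AP were named for their position, and COL3A1, TENM1 to TENM4 and CD55 for their tie to a member, after their values were seen. One further list of genes downstream of the receptors is not reported here. The members and lists were chosen with earlier results of these data known. Scripts were tested on simulated data. Python 3.11.15 made the summaries and figures. Counts were whole in all libraries for 24 of the 32 members and not for ADGRA2, ADGRE2, ADGRE5, ADGRF1, ADGRF2, ADGRF3, ADGRG1 and ADGRV1. ADGRA2, ADGRE2, ADGRF3 and ADGRV1 share exonic bases with BRF2, ZNF333, SELENOI and LYSMD3 on the opposite strand, so their levels are uncertain.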

Additional observations from a re-analysis of the deposited data

How the results depend on the processing

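The fit was repeated under 11 alternatives (other scalings, no count filter, DESeq2, limma-voom, non-robust quasi-likelihood, no cell line term, each line left out). Without the pairing by cell line, 10 genes were called over all genes and 0 members by edgeR, with 3 members at an unadjusted p under 0.05, 2 higher and 1 lower. With a line left out, 611 to 3973 genes and 3 to 4 members were called. Of 44 refits of the 4 called members 37 kept the call and 7 lost it, none with a change of direction. These were all 4 without the pairing, ADGRG1 without HCCLM3, and ADGRG6 without MHCC97H and by DESeq2. Without the pairing the adjusted p by edgeR was 0.218 for ADGRG1, 0.287 for ADGRF4, 0.221 for ADGRF1 and 0.774 for ADGRG6, and the changes were 2.87, 1.15, -0.79 and -0.91. Of 164 refits of members not called 8 changed sign, and of the 158 with an adjusted p none passed. DESeq2 gave no adjusted p for ADGRA2, ADGRD1, ADGRF3, ADGRF5, ADGRL3 and ADGRV1. ADGRA3 was at -0.0127 with library totals and at -0.0016 to 0.0578 with a line left out. ADGRF3 was at 0.072 by DESeq2, 0.0104 by limma-voom and -0.4127 to 0.3685 with a line left out, ADGRL1 at -0.1241 to 0.0024 and ADGRV1 at -0.3699 to 0.2249. The cause of these shifts was not tested.

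Within lines, 4 members in MHCC97L, 6 in MHCC97H and 7 in HCCLM3 changed at 1.5-fold, and 1 in each line at 3-fold. With a prior count of 5, 1 in MHCC97L, 3 in MHCC97H and 2 in HCCLM3 changed at 2-fold. The shares over all genes were not computed at these settings, so these counts show only how the number of members moves. With a line left out, 3 to 10 ligands and partners and 2 to 5 planar cell polarity partners were called. Beside these, 611 to 3973 of the 14255 to 14344 genes tested were called. The number of members at 1 CPM or more stayed within 1.5 times the main count at minimums of 0.5 and 2 CPM and with library totals. Depth limits the members under 1 CPM, whose counts cannot show a change of moderate size.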
